A study of Mus musculus with 12 samples.

Results

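The Rhox genes are reproductive homeobox genes that lie side by side on the X chromosome and encode transcription factors of the gonads, germ cells and placenta. Rhox5, Rhox6, Rhox8 and Rhox9 were followed here, 4 of the 34 features named Rhox among 32285 features counted. They were chosen by measured values in these same data: Rhox8 for its level in gonadal somatic cells and its fall there in -KTS KO, the other 3 for their levels in germ cells. The placement of each member in its cell type, and the fall of Rhox8 in -KTS KO somatic cells, are therefore given as descriptions with no test.

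In the mouse, Rhox5, also called Pem, is the founding member of the family and is known from germ cells, placenta and the Sertoli cells of the testis. Rhox6 and Rhox9 form a pair of closely related genes known from the placenta and from germ cells, and Rhox8 is known from the supporting cells of testis and ovary. Many members of the cluster are kept silent in most somatic tissues by DNA methylation. Supporting cells surround the germ cells and become Sertoli cells in the testis or granulosa cells in the ovary.

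Single-cell RNA was measured, as unique molecular identifiers (UMIs) counted at the 3′ end of transcripts, in mouse fetal gonads at E12.0, a stage of 23 ± 3 tail somites. The study asked what each of the 2 main forms of WT1 does in sex determination. WT1 is a zinc finger protein, and alternative splicing either adds (+KTS) or leaves out (-KTS) the residues lysine, threonine and serine between its last zinc fingers. There were 6 groups of 2 libraries each: XX and XY gonads of wild type (WT), of mutants that cannot make the -KTS form (-KTS KO) and of mutants that cannot make the +KTS form (+KTS KO). All groups shared a mixed background of B6CBAF1/JRj, and both alleles were germline and homozygous, so that germ cells as well as somatic cells carried them. The study's supplement states that the -KTS KO libraries pooled the gonads of several embryos. Reads at the 3′ end cannot tell the splice forms apart, so the Wt1 level does not check the genotype labels.

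Library totals ran from 108111924 to 147968666 UMIs. Of 76066 cells kept, 7019 were called germ cells, from clusters and their markers. The 65399 gonadal somatic cells were set by exclusion. They were the cells of all clusters not named germ, endothelial, perivascular, immune, erythroid or mesonephric duct, unnamed clusters included. A library was the unit of every comparison, and levels are UMIs scaled to 1000000 (CPM) of the summed germ cells, which held 8376969 to 35733340 UMIs per library, or of the summed somatic cells, which held 53331739 to 94949065. Xist and Y-linked genes matched the labelled sex in all 12 libraries. XX -KTS KO replicate 2 stood apart, with 22.8% germ cells against 2.65 to 16.95% in the other libraries and many germ cells of few UMIs. XY +KTS KO replicate 1 stood apart in having the lowest germ-cell levels of Rhox5, Rhox6 and Rhox9. Its germ cells also had the highest Wt1, at 7.56 CPM against a median of 2.83 CPM, and the highest Dazl, at 732 CPM against 306 CPM.

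On GRCm38, Rhox5 (ENSMUSG00000095180) lies at chrX:37804842-37808876 on the + strand and Rhox6 (ENSMUSG00000006200) at chrX:37826910-37829857 on the + strand. Rhox8 (ENSMUSG00000064137) lies at chrX:37874778-37878944 and Rhox9 (ENSMUSG00000068048) at chrX:37899097-37901770, both on the - strand. The 4 genes thus spanned 96929 bases of a cluster of 916164 bases. To see whether the counts of near-identical copies could be split, transcripts of the Rhox genes were compared in stretches of 31 bases. Rhox5 and Rhox8 shared none with another Rhox gene, whereas 23.3% of the Rhox6 stretches and 9.08% of the Rhox9 stretches were shared between those genes. Counts of Rhox6 and Rhox9 may therefore have lost reads that fit both, and counts of the Rhox2, Rhox3, Rhox4 and Rhox7 copies, which shared at least 63% of their stretches, are uncertain.

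The promoter of Rhox5 is shown as that of the only member found in the promoter table used. The sequence is the RefSeq window of GRCm38.p6 at chrX:37754358-37754657 on the + strand, from 250 bases before to 50 bases after a start that lies 50234 bases upstream of the gene start given above. Capitals mark CG dinucleotides, the sites of DNA methylation.
Rhox5 promoter: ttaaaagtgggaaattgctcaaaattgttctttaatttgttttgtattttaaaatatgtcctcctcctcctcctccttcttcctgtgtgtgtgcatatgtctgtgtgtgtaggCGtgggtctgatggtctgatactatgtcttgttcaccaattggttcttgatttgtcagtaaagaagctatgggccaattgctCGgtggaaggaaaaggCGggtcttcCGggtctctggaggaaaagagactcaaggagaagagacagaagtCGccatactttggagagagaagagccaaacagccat
It held 5 CG dinucleotides, against a median of 7 over 32851 promoters of the same length, of which 38.0% held fewer. The letters AACAAT, a SOX motif, matched once on either strand, and 10.7% of promoters hold it. GCGTGGGNG and GTGGGGGAG, motifs of WT1, AAGGTCA of NR5A1 and AGATAA of GATA factors had 0 matches, against 1.90%, 1.49%, 4.72% and 11.2% of promoters. UMIs at the 3′ end do not show which promoter a transcript came from.

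In germ cells, Rhox5, Rhox6 and Rhox9 were abundant in every library, and none of them was called in a comparison between genotypes. The rule chose them for being expressed there, so the level itself is a description. Rhox5 stood at 1175 and 1180 CPM in the XX WT libraries and 1152 and 970 CPM for XY WT. It was at 1314 and 1085 CPM for XX -KTS KO, 1281 and 1091 CPM for XY -KTS KO, 1085 and 970 CPM for XX +KTS KO, and 646 and 1043 CPM for XY +KTS KO. The ranges of all 6 groups lay close together, apart from the low XY +KTS KO replicate 1.

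Rhox6 was at 863 and 792 CPM for XX WT and at 496 and 470 CPM for XY WT. In the mutants it was at 840 and 734 CPM for XX -KTS KO, 629 and 504 CPM for XY -KTS KO, 634 and 729 CPM for XX +KTS KO, and 275 and 510 CPM for XY +KTS KO. Every XX library lay above every XY library within a genotype. Rhox9 was at 1259 and 1042 CPM for XX WT and at 717 and 678 CPM for XY WT. Its mutant levels were 988 and 920 CPM for XX -KTS KO, 834 and 672 CPM for XY -KTS KO, 889 and 935 CPM for XX +KTS KO, and 423 and 698 CPM for XY +KTS KO. As with Rhox6, both XX libraries of each genotype exceeded both XY libraries.

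**Figure D1:**
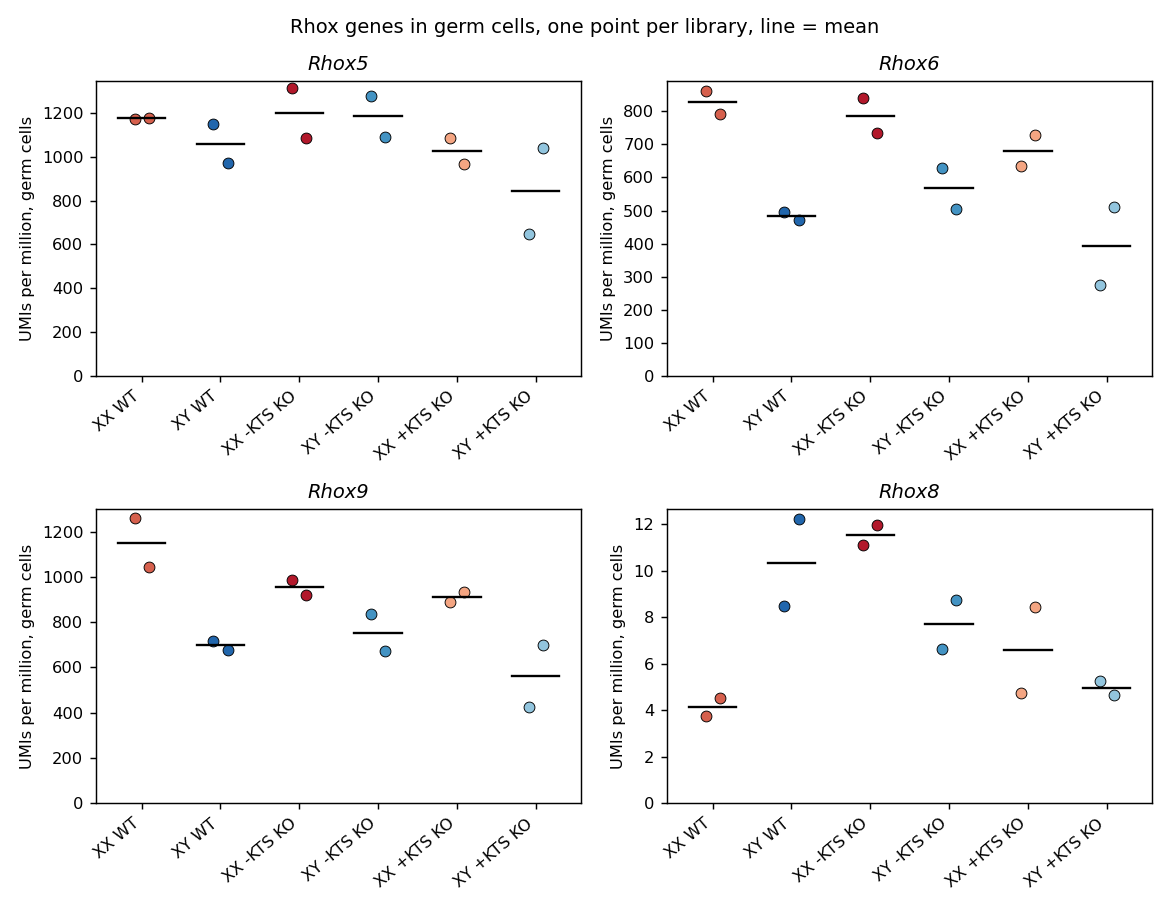
Levels of Rhox5, Rhox6, Rhox8 and Rhox9 in germ cells, in CPM of the summed germ cells, with 1 point per library and a line at each group mean for the 6 groups. Rhox5 lies at 970 to 1314 CPM in 11 of the 12 libraries, with XY +KTS KO replicate 1 below them at 646 CPM, and Rhox6 and Rhox9 are lower in XY than in XX libraries of the same genotype.

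The 3 genes were found together in single cells. With each germ cell thinned to 5000 UMIs, at least 1 of the 3 was detected in 99.3 to 100% of germ cells of each library, and all 3 in 60.7 to 96.3%. The lowest share came from XY +KTS KO replicate 1 and the highest from XX WT replicate 1. Thinned in this way, 6396 cells remained.

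The -KTS KO comparison asked whether germ cells keep this expression when the -KTS form is missing. Values here are log2 fold changes of the edgeR quasi-likelihood fit and p-values adjusted over all 13663 genes tested, and a gene was called at an adjusted p of 0.05. Standard errors (SE) were derived from each fold change and its F statistic. In XX -KTS KO against XX WT, Rhox5 differed by 0.10 (SE 0.25, adjusted p = 0.922), Rhox6 by 0.00 (SE 0.28, adjusted p = 0.999) and Rhox9 by -0.20 (SE 0.26, adjusted p = 0.827). By edgeR 0 of the 3 were called, 0 had an unadjusted p under 0.05 and DESeq2 called 0, while 0.0951% of all genes were called by edgeR. These groups differed in their germ cell clusters. Cluster 23 held 936 of the 1398 XX WT germ cells and 16 of the 1493 of XX -KTS KO. In XY -KTS KO against XY WT, Rhox5 differed by 0.21 (SE 0.25, adjusted p = 0.912), Rhox6 by 0.28 (SE 0.28, adjusted p = 0.903) and Rhox9 by 0.16 (SE 0.26, adjusted p = 0.930). Again 0 of the 3 were called by edgeR, at an unadjusted p under 0.05 or by DESeq2, against 0.00732% of all genes. The -KTS KO effect in XY minus that in XX was 0.11 (SE 0.36) for Rhox5, 0.28 (SE 0.40) for Rhox6 and 0.36 (SE 0.36) for Rhox9, with adjusted p = 1.00 for each. This difference was called for 0 of the 3 by edgeR, at an unadjusted p under 0.05 or by DESeq2, and for 0.0586% of all genes.

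The +KTS KO comparison, which used the same WT libraries, asked the same of the +KTS form. In XX +KTS KO against XX WT, Rhox5 differed by -0.13 (SE 0.25, adjusted p = 0.930), Rhox6 by -0.22 (SE 0.28, adjusted p = 0.894) and Rhox9 by -0.27 (SE 0.26, adjusted p = 0.832). None of the 3 passed in edgeR, at an unadjusted p under 0.05 or in DESeq2, a count of 0 against 0.0732% of all genes. Of the 538 XX +KTS KO germ cells, 13 were in cluster 23, so these groups differed in their clusters as well. In XY +KTS KO against XY WT, Rhox5 differed by -0.28 (SE 0.25, adjusted p = 0.830), Rhox6 by -0.24 (SE 0.28, adjusted p = 0.880) and Rhox9 by -0.26 (SE 0.26, adjusted p = 0.848). Here too 0 of the 3 were called by edgeR, at an unadjusted p under 0.05 or by DESeq2, and edgeR called 0% of all genes, with 1138 at an unadjusted p under 0.05 and 34 called by DESeq2. These negative values rested on 1 library, because without XY +KTS KO replicate 1 they were 0.11, 0.22 and 0.14. The +KTS KO effect in XY minus that in XX was -0.15 (SE 0.36, adjusted p = 0.997) for Rhox5, -0.02 (SE 0.40, adjusted p = 0.999) for Rhox6 and 0.01 (SE 0.36, adjusted p = 1.00) for Rhox9. It was called for 0 of the 3 by edgeR, at an unadjusted p under 0.05 or by DESeq2, and for 0.0512% of all genes.

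Between the sexes, Rhox6 and Rhox9 were lower in XY WT than in XX WT germ cells by close to the same amount, but did not pass the adjusted threshold. The log2 fold change was -0.76 for Rhox6 (SE 0.28, adjusted p = 0.299) and -0.71 for Rhox9 (SE 0.26, adjusted p = 0.286). For Rhox5 it was -0.13 (SE 0.25, adjusted p = 0.953). By edgeR 0 of the 3 were called, against 0.959% of all genes (657 of 22886 with no filter on low counts), and DESeq2 called 0. At an unadjusted p under 0.05 there were 2, Rhox6 and Rhox9, against 11.4% of all genes. In the 2 fits where both genes passed, those with no filter on low counts and without XY +KTS KO replicate 1, adjusted p was 0.00835 and 0.0264 for Rhox6 and 0.0178 and 0.0396 for Rhox9.

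**Figure D2:**
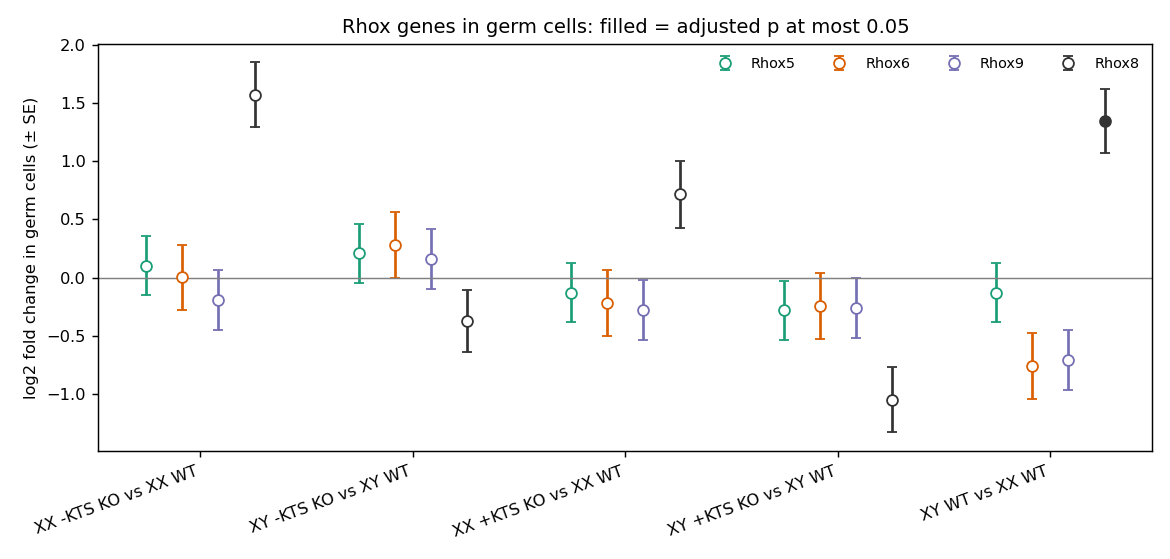
Fitted log2 fold changes in germ cells for the 4 members in 5 comparisons, with bars of 1 SE. Rhox5, Rhox6 and Rhox9 stay within 0.28 of 0 in the 4 mutant comparisons, while Rhox6 and Rhox9 lie at -0.76 and -0.71 in XY WT against XX WT.

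Most XX WT germ cells lay in another cluster than most germ cells of XY WT, so the levels were also read within 1 cluster. In the largest, cluster 7 of 3657 cells, led by the germ cell genes Dppa5a and Dppa3, Rhox6 was at 811 and 744 CPM for XX WT and at 494 and 465 CPM for XY WT. In the same cells, Rhox9 was at 1153 and 993 CPM for XX WT and at 715 and 677 CPM for XY WT. Within this cluster, too, the XX and XY libraries of both genes did not overlap. Clusters were made without the Rhox genes, and cluster 7 held 73 and 90 cells of the XX WT libraries. Cluster 23, of 1037 cells, held 936 of the 1398 XX WT germ cells.

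Since the Rhox genes lie on the X, the sex difference was set beside that of the other X-linked genes, which in female germ cells include a second active copy once the inactive X has been reactivated. Of the 472 X-linked genes tested that are not named Rhox, 22 were lower and 1 was higher by edgeR, with a median log2 fold change of -0.29, against a median of 0.00 over 13137 autosomal genes. Among these 472 genes, 15.9% had a lower fold change than Rhox6, 18.6% a lower one than Rhox9 and 61.9% a lower one than Rhox5. Rhox6 and Rhox9 thus lay in the lower part of the X-linked genes and Rhox5 nearer to the middle. The part of a second X copy in these values was not tested. Of the germ cell and germline list, which includes Dppa3, Pou5f1 and Dazl, 27 of 28 genes were tested, and edgeR called 0 in each of the 5 comparisons. At an unadjusted p under 0.05 there were 3 to 5 of the 27, against 6.42 to 11.4% of all genes. DESeq2 called 1 gene of the list, Stra8, a gene of meiotic entry, in XY -KTS KO against XY WT. Of 8 genes of the DNA methylation machinery, 6 were tested in germ cells and 0 were called by edgeR or DESeq2 in any of them, with 0 to 2 at an unadjusted p under 0.05.

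Over the 12 libraries, the gene most like Rhox6 in germ cells was Rhox9, with Pearson's r of 0.980 on the log2 scale among 5567 genes compared. The next for Rhox6 was Rps4x, an X-linked ribosomal protein gene, at 0.951. For Rhox9 the next was Cox14 at 0.960. The gene most like Rhox5 was Slc25a5, an X-linked mitochondrial carrier gene, at 0.940. These values describe libraries that differ in sex, depth and genotype, and Rhox6 and Rhox9 share part of their sequence.

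The other 30 Rhox features were mostly low. In germ cells 18 of them were tested and 0 were called by edgeR in any of the 5 comparisons. At an unadjusted p under 0.05 there were 4 in XX -KTS KO, 2 in XY -KTS KO, 4 in XX +KTS KO, 6 in XY +KTS KO, with 3 for XY WT against XX WT. Of all 13663 genes, 10.8%, 6.42%, 8.44%, 8.33% and 11.4% had such a p in these comparisons, in the same order. DESeq2 called 1 in XX -KTS KO and 1 in XY WT against XX WT, Rhox13 in both, and 1 in XY +KTS KO, Rhox4c, where it called 0.864%, 2.12% and 0.249% of all genes. Rhox1 averaged 50.003 CPM for XX WT, 34.8 CPM for XY WT, 43.1 CPM for XX -KTS KO, 33.9 CPM for XY -KTS KO, 42.2 CPM for XX +KTS KO and 27.1 CPM for XY +KTS KO. Rhox2a ran from 25.0003 CPM for XY +KTS KO to 38.9 CPM for XY -KTS KO. Rhox4c, whose count is uncertain because of near-identical copies, ran from 4.38 CPM for XY +KTS KO to 28.4 CPM for XY -KTS KO.

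Rhox8 was the member of the somatic cells, and it was almost lost from them in -KTS KO gonads of both sexes. In gonadal somatic cells it stood at 25.5 and 32.7 CPM for XX WT and at 32.2 and 57.5 CPM for XY WT. In XX -KTS KO it was at 0.0368 and 0.0750 CPM, from 3 and 4 UMIs, and in XY -KTS KO at 0.0282 and 0.0502 CPM, from 2 and 4 UMIs. Every WT library exceeded every -KTS KO library by far, and this fall is what the choice of Rhox8 rested on. In +KTS KO it was at 41.9 and 18.8 CPM for XX and at 64.3 and 27.2 CPM in XY.

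Summed over both libraries of a group, XX WT held 4498 Rhox8 UMIs and XX -KTS KO 7, a ratio of 568 between their levels. XY WT held 5954 and XY -KTS KO 6, a ratio of 1101. The fitted log2 fold change was -9.02 in XX and -10.11 in XY. The share of all genes that edgeR called was 16.5% in XX and 23.7% in XY, and nothing is read from it for Rhox8, whose rule used these contrasts. In sums over cells, fewer cells of a type and less RNA per cell cannot be told apart, which is why the cell classes are given below.

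In +KTS KO, Rhox8 did not differ beyond the spread of the libraries. It differed by 0.12 in XX (SE 0.42, adjusted p = 0.935) and by -0.07 in XY (SE 0.42, adjusted p = 0.926), in fits of 17690 genes that shared the WT libraries with the -KTS KO comparisons. By edgeR, at an unadjusted p under 0.05 and by DESeq2, Rhox8 was called in 0 of these 2 comparisons, against 5.17% of all genes in XX and 12.8% in XY. The +KTS KO libraries of a group lay far apart, with replicate 1 higher in both sexes, and leaving out 1 replicate number moved the value between -0.77 and 0.77 in XX and between -1.01 and 0.74 in XY. The +KTS KO effect in XY minus that in XX was -0.19 (SE 0.60, adjusted p = 0.892), and 4.1% of all genes were called for this difference. Between WT sexes Rhox8 differed by 0.69 (SE 0.42, adjusted p = 0.332), against 13.8% of all genes called.

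**Figure D3:**
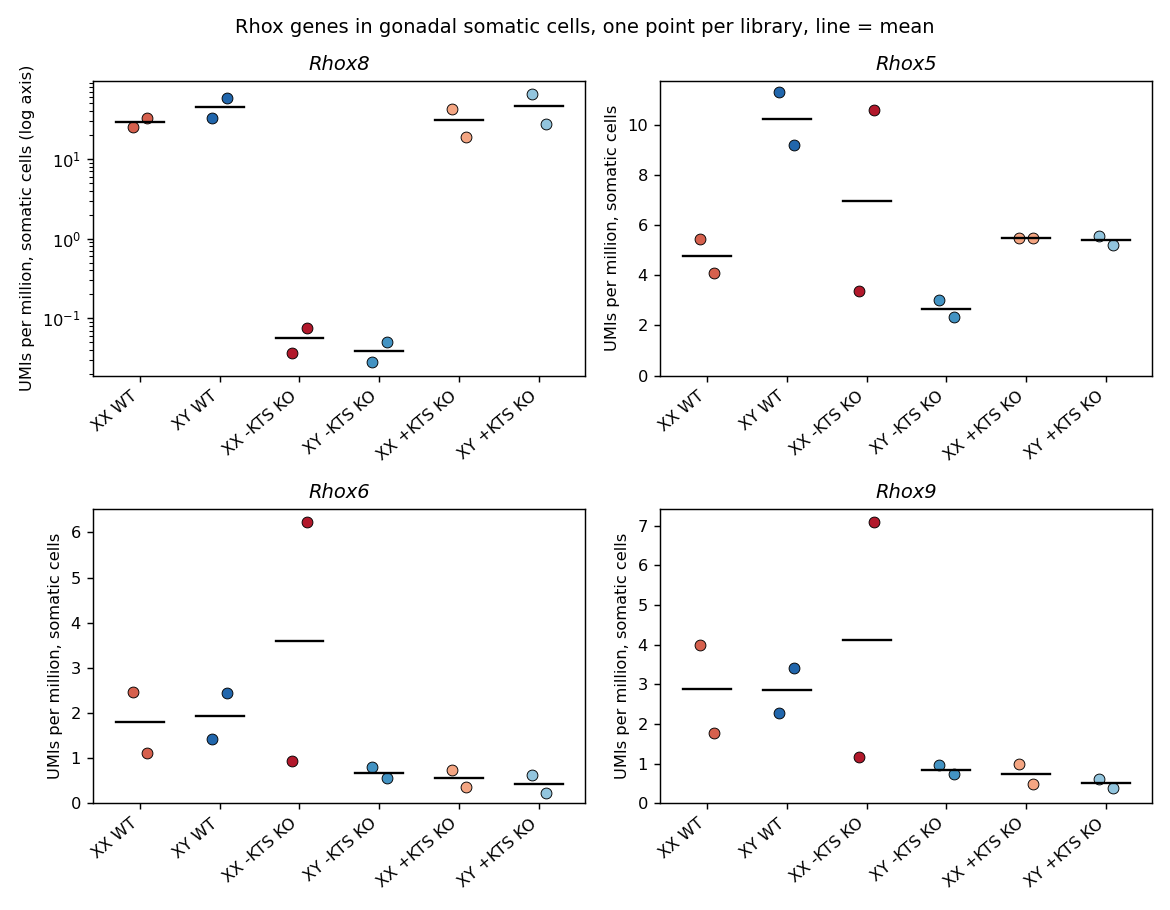
Levels of the 4 members in gonadal somatic cells, in CPM of the summed somatic cells, with 1 point per library and a line at each group mean. The axis of Rhox8 is logarithmic: its 4 -KTS KO libraries lie at 0.0282 to 0.0750 CPM and the other 8 at 18.8 to 64.3 CPM.

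By cell class, Rhox8 belonged to the supporting lineage. Classes are named from markers, and the name ends in -like. In Sertoli-like cells of XY WT, marked by Sox9, Amh and Dhh, Rhox8 was at 105 and 158 CPM. In pre-granulosa-like cells, marked by Foxl2 and Fst, it was at 45.9 and 62.5 CPM for XX WT. In pre-supporting-like cells it was at 47.6 and 59.6 CPM for XX WT and at 33.8 and 44.0 CPM for XY WT. The order in WT thus ran from Sertoli-like cells down to the other supporting classes, whose libraries overlapped.

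Of the other WT classes, 3 were low. Coelomic-epithelium-like cells had 1.298 and 1.298 CPM for XX WT and 0.525 and 1.06 CPM for XY WT. Interstitial-progenitor-like cells had 1.64 and 0.928 CPM for XX WT and 0 and 0.753 CPM for XY WT. Endothelial-like cells, which should lack the gene, had 0.341 and 0 CPM for XX WT and 0.321 and 0.467 CPM for XY WT. In WT, the supporting classes therefore stood above all 3 of these in every library. The WT cells left unnamed had 13.3 and 15.8 CPM for XX WT and 23.8 and 25.02 CPM for XY WT, the XY WT values from 14 UMIs in all, and those of XX WT lay mostly in cluster 25, led by Plac8 and Pax8.

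In -KTS KO, most cells with a supporting name were in cluster 3, called pre-supporting-like although none of the markers of that name was among its 10 leading genes. These cells held Rhox8 at 0.0500 and 0.157 CPM for XX and at 0 and 0.0927 CPM in XY, against 33.8 to 59.6 CPM in the WT libraries of that class. The fall was thus also seen within the class, but different clusters held it in WT and in -KTS KO. Cluster 14, with 279 XX WT and 1866 XY WT cells of the class, likewise had 0 of its markers among the 10 leading genes. XX -KTS KO held no Sertoli-like cells, whereas XY -KTS KO held 8. Beside the fall of Rhox8, the list of 25 supporting-lineage genes held 15 that were lower and 1 higher in XX -KTS KO, with a median log2 fold change of -2.26 against 0.01 over all genes. In XY -KTS KO 15 were lower and 2 higher, with a median of -1.76 against 0.01. Their levels moved with Rhox8, and their part in the result was not tested.

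In +KTS KO, pre-granulosa-like cells held Rhox8 at 99.2 and 25.2 CPM for XX and at 122 and 97.5 CPM in XY. Most of those of XY +KTS KO replicate 1 were in cluster 11, whose leading genes included the immediate early genes Fos, Fosb and Junb. Few cells of XX +KTS KO took this name under the marker rule: cluster 20 held 199 of them and cluster 29, with a median of 3035.5 UMIs per cell, 182. The paper described pre-granulosa clusters in +KTS KO gonads of both sexes, distinct from those of XX controls. Whether the unnamed cells here are the same cells was not tested, so the small number is no measure of pre-granulosa cells. The cells left unnamed had 75.4 and 34.1 CPM for XX +KTS KO and 121 and 53.6 CPM for XY +KTS KO. Most of them lay in cluster 0, led by Cyp11a1, Pnmt and Inha, which held 4623 XX and 2435 XY +KTS KO cells. Coelomic-epithelium-like cells had 8.41 and 9.63 CPM for XX +KTS KO and 9.09 and 8.20 CPM for XY +KTS KO. Their 4 libraries lay above the 4 WT libraries, which reached 1.298 CPM, a difference that was not tested. Different clusters held the class: clusters 8, 9 and 17 held most of its +KTS KO cells and clusters 5, 12 and 15 most of its WT cells. Clusters 5, 9, 12 and 17 had 0 markers of the class among their 10 leading genes, which included the mitotic genes Aspm and Plk1 in cluster 5, histone genes in cluster 9 and the immediate early genes Fos and Egr1 in cluster 17.

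**Figure D4:**
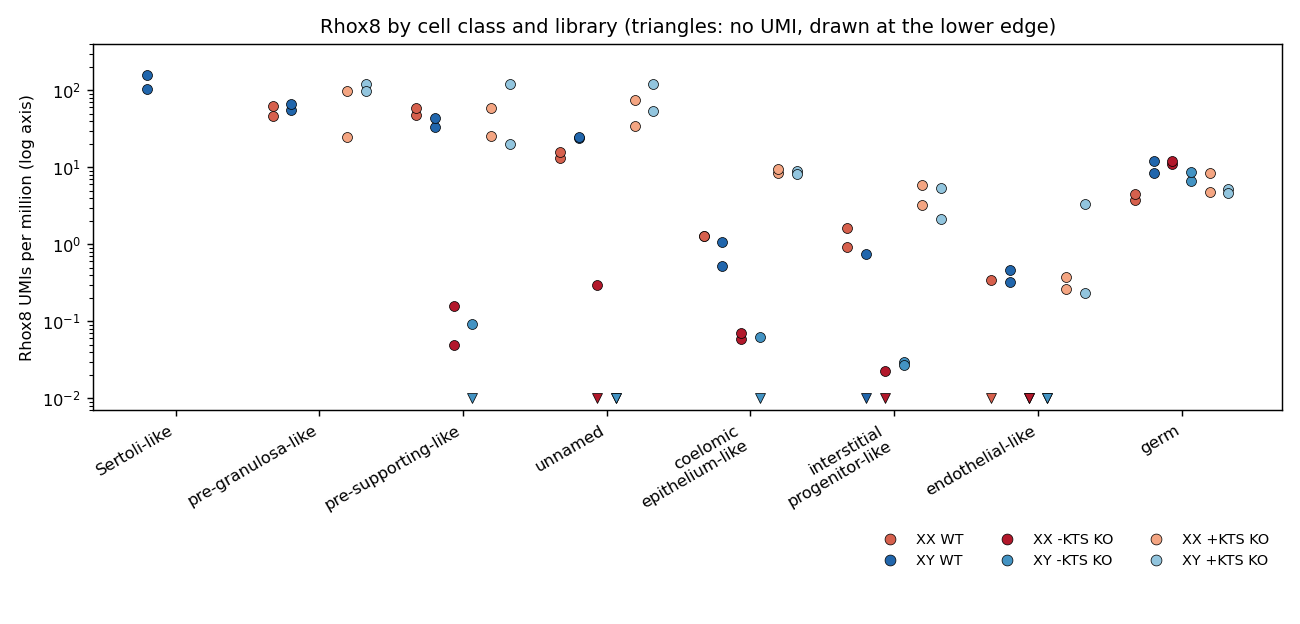
Rhox8 by cell class and library, in CPM on a logarithmic axis, with 1 point per library in the color of its group and a triangle at the lower edge where no UMI was counted. Sertoli-like cells of XY WT lie highest among WT classes at 105 and 158 CPM. The -KTS KO points of the pre-supporting-like class lie at or below 0.157 CPM, far below the -KTS KO points of germ cells.

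Thinned to 5000 UMIs per cell, Rhox8 was detected in 27.9 and 33.4% of the Sertoli-like cells of XY WT, against a mean of 46.0% without thinning. Over all somatic cells the thinned share was 8.40 and 10.4% in XX WT and 9.06 and 13.2% in XY WT. It was 0.0239 and 0.0653% in XX -KTS KO, whereas both XY -KTS KO libraries had 0%. In endothelial-like cells of WT it was 0% in all 4 libraries, with a median depth of 14154.5 UMIs in XY WT against 11589 in Sertoli-like cells. In +KTS KO it was 12.2 and 7.28% in XX and 17.5 and 9.19% in XY, with replicate 1 again the higher. Thinning left out 437 to 1859 shallower cells per group, most in XY +KTS KO, where 4814 of the 6403 cells of replicate 1 remained, and the median depth of somatic cells ran from 10934.5 UMIs in XY WT to 14703.5 in XX -KTS KO.

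Over the 12 libraries, the genes with a somatic level most like that of Rhox8 were Aqp5, a water channel gene, with r of 0.986, Aldh3b1 with 0.983 and Shisa2 with 0.978, among 6513 genes compared. Since -KTS KO libraries lie far from the others in Rhox8, these values mainly describe that split.

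Rhox8 was also counted in germ cells, at a low level that differed between the sexes of WT. It was at 3.74 and 4.53 CPM for XX WT and at 8.46 and 12.2 CPM for XY WT. It was at 11.1 and 11.98 CPM for XX -KTS KO, 6.64 and 8.76 CPM for XY -KTS KO, 4.74 and 8.45 CPM for XX +KTS KO, and 5.24 and 4.66 CPM for XY +KTS KO. The WT libraries of the sexes did not overlap, and XY WT exceeded XX WT by 1.34 on the log2 scale (SE 0.28, adjusted p = 0.0466). This call was close to the threshold: adjusted p was 0.0970 with doublets kept, 0.0635 with cells named one by one and 0.0749 without XX -KTS KO replicate 2. Over the alternatives it ran from 0.000251 to 0.770. Supporting-lineage genes moved in the same germ cells: of 25 listed, 21 were tested, Sox9 (4.75) and Cst9 (4.70) were higher in XY WT, Irx3 (-2.58) was lower on the log2 scale by edgeR, which is 14.3% of those tested against 0.959% of all genes. At an unadjusted p under 0.05 there were 8 of the 21, against 11.4% of all genes, and DESeq2 called 3, Cst9, Irx3 and Ptgds but not Sox9. Their part in the Rhox8 result was not tested.

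Against its own sex, germ-cell Rhox8 in XX -KTS KO was higher than in XX WT by 1.57 (SE 0.28, adjusted p = 0.0884). This missed the threshold in edgeR but was called by DESeq2 (adjusted p = 0.000392), with no filter on low counts (adjusted p = 1.02e-05) and with replicate number as a block (adjusted p = 0.0445). In this comparison these settings called 0.864% of all genes, 419 of 22886 and 9 of 13663, in that order. Most XX WT germ cells were in cluster 23, which held 16 of the 1493 XX -KTS KO germ cells. Within cluster 7, Rhox8 was at 6.28 and 5.25 CPM for XX WT, from 25 UMIs, and at 10.1 and 12.4 CPM for XX -KTS KO. In XY -KTS KO it differed by -0.37 (SE 0.27, adjusted p = 0.869), in XX +KTS KO by 0.72 (SE 0.29, adjusted p = 0.526) and in XY +KTS KO by -1.05 (SE 0.28, adjusted p = 0.369), which with no filter was called (-1.08, adjusted p = 0.0195). The -KTS KO effect in XY minus that in XX was -1.95 (SE 0.38, adjusted p = 0.144), and the +KTS KO one -1.76 (SE 0.40, adjusted p = 0.247). DESeq2 called both differences, with adjusted p = 0.00582 and 0.0377, as did edgeR with no filter, with adjusted p = 0.000272 and 0.00333. Of all genes, DESeq2 called 0.315% and 0.395% for these differences. With no filter, edgeR called 194 and 256 of 22886 genes for them, and 358 in XY +KTS KO against XY WT.

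Since free RNA of broken somatic cells can add UMIs to germ cells, the germ-cell level was set against that of the same libraries' somatic cells. Wt1, a somatic gene, was in germ cells at 0.704 to 2.44% of its somatic level and Gata4 at 0.835 to 3.75%. Rhox8 in germ cells was at 8.14 to 45% of its somatic level in the 8 WT and +KTS KO libraries. In the 4 -KTS KO libraries the somatic level came from 2 to 4 UMIs and was what the choice of Rhox8 rested on, so no share is given for them. The part of free RNA in the germ-cell level of Rhox8 was not tested.

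The germline members were conversely found in somatic cells, and there Rhox5 fell in XY -KTS KO. Rhox5 was at 5.47 and 4.08 CPM for XX WT, 11.3 and 9.20 CPM for XY WT, 3.38 and 10.6 CPM for XX -KTS KO and 3.01 and 2.33 CPM for XY -KTS KO. It was at 5.499 and 5.503 CPM for XX +KTS KO and at 5.57 and 5.22 CPM for XY +KTS KO. Both XY WT libraries lay above all other libraries but 1, XX -KTS KO replicate 2, which had the highest share of germ cells.

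In XY -KTS KO somatic cells Rhox5 was lower than in XY WT by -1.98 on the log2 scale (SE 0.43, adjusted p = 0.00918), and by -3.92 with doublets kept (adjusted p = 0.000269). By edgeR it was the only 1 of the 3 germline members called in the 5 somatic comparisons. In this one 23.7% of all genes were called, and 5.17 to 16.5% in the others. Rhox6, at -1.53, and Rhox9, at -1.77, fell in the same direction without being called. With doublets kept, Rhox6 (-4.35) and Rhox9 (-4.69) were called here as well, where 4666 of 17977 genes were called. The adjusted p was 0.109 without replicate 1 and 0.110 without replicate 2. DESeq2 called Rhox5 and Rhox9 in this comparison, Rhox6 and Rhox9 in XY +KTS KO against XY WT, and Rhox5 in XY WT against XX WT, where it called 26.8%, 18.5% and 17.3% of all genes. For Rhox5, edgeR gave 0.59 in XX -KTS KO (SE 0.42, adjusted p = 0.391), 0.24 in XX +KTS KO (SE 0.42, adjusted p = 0.843), -1.02 in XY +KTS KO (SE 0.42, adjusted p = 0.131) and 1.18 in XY WT against XX WT (SE 0.42, adjusted p = 0.0945). The -KTS KO effect on Rhox5 in XY minus that in XX was -2.57 (SE 0.60, adjusted p = 0.0506), which edgeR did not call and DESeq2 did, against 3.16% and 7.61% of all genes. This value rested in part on XX -KTS KO replicate 2, without which the -KTS KO effect was -0.43 in XX and -1.99 in XY. All 3 germline members had an unadjusted p under 0.05 for the XY minus XX difference, against 18.2% of all genes. Their median was -2.56. For the same difference, the germ cell and germline list had a median of -1.39, with 0 of 22 genes called and 8 at an unadjusted p under 0.05, and their part in it was not tested.

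Rhox6 and Rhox9 were lower still. Rhox6 ran from 0.232 to 6.23 CPM and Rhox9 from 0.379 to 7.09 CPM, both highest in XX -KTS KO replicate 2 and lowest in XY +KTS KO replicate 2. For Rhox9, edgeR gave -2.60 in XY +KTS KO against XY WT (SE 0.77, adjusted p = 0.0529), and for Rhox6 -2.29 (SE 0.83, adjusted p = 0.0960). Leaving out replicates moved these values from -3.09 to -2.14 for Rhox9 and from -3.32 to -1.45 for Rhox6. Rhox9 was called under 7 of the 14 alternatives and Rhox6 under 4. Rhox5 was called under 2 of them in the same comparison, and under 5 in XY WT against XX WT. In XY +KTS KO against XY WT, the germ cell and germline list had a median log2 fold change of -0.66, against 0.05 over all genes. Of its 22 genes tested, edgeR called 1, DESeq2 called 4 and 7 had an unadjusted p under 0.05. The shares of all genes were 12.8%, 18.5% and 30.9%. The part of the listed genes in the Rhox values was not tested.

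Levels of germ-cell RNA in somatic cells were read from germ cell genes, which cannot tell free RNA from doublets or misnamed cells. In somatic cells, Dppa5a was at 0.0334 to 0.707% of its germ-cell level and Dppa3 at 0.0406 to 0.861%. Rhox6 was at 0.0454 to 0.848% and Rhox9 at 0.0520 to 0.770%, close to the range of these germ cell genes. Rhox5 was at 0.214 to 0.981%, with a median of 0.504% against 0.132% for Rhox9. Pou5f1, another germ cell gene, was at 0.176 to 1.31% with a median of 0.281%, and its highest share came from XX -KTS KO replicate 2. Within a library, the Rhox5 share was above that of Pou5f1 in 8 of 12, among them the 4 +KTS KO libraries, where Rhox5 was at 0.501 to 0.863% and Pou5f1 at 0.176 to 0.291%. The ratio of Rhox5 to Rhox9 differed between the compartments: Rhox5 had 0.933 to 1.62 UMIs per Rhox9 UMI in germ cells and 1.37 to 13.8 in somatic cells. The ratio of Rhox6 to Rhox9 was 0.650 to 0.850 in germ cells and 0.611 to 1.00 in somatic cells. The ratio of Rhox6 to Rhox9 thus overlapped between the compartments, with a wider range in somatic cells, whereas that of Rhox5 to Rhox9 reached higher values in somatic cells.

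**Figure D5:**
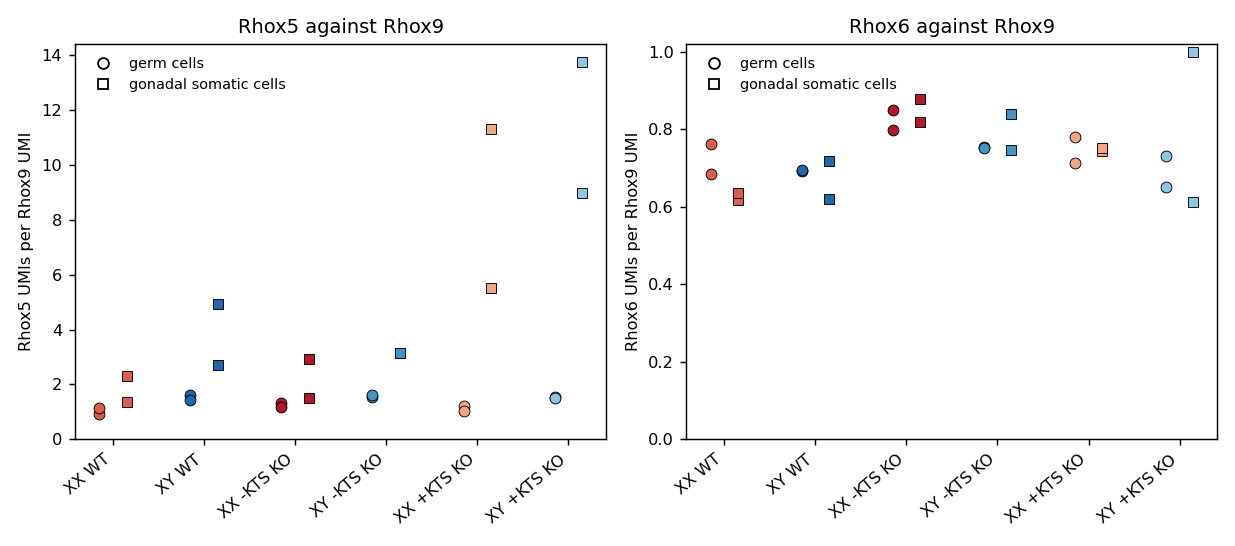
UMIs of Rhox5 per UMI of Rhox9 and of Rhox6 per UMI of Rhox9, with 1 point per library for germ cells and for gonadal somatic cells. The Rhox5 ratio spreads from 1.37 to 13.8 in somatic cells against 0.933 to 1.62 in germ cells, and the Rhox6 ratio overlaps between them.

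Counting as many Rhox5 UMIs per Rhox9 UMI as the germ cells of the same library held, 9.16 to 78.9% of the somatic Rhox5 UMIs were matched by Rhox9. The Rhox5 level beyond that was 1.74 and 2.09 CPM for XX WT and 7.64 and 4.33 CPM for XY WT. It was 1.84 and 2.24 CPM for XX -KTS KO, 1.54 and 1.13 CPM for XY -KTS KO, 4.28 and 4.998 CPM for XX +KTS KO and 4.63 and 4.66 CPM for XY +KTS KO. On this scale the XY WT and XY -KTS KO libraries did not overlap. Within classes, Rhox5 was at 10.3 and 8.27 CPM in the Sertoli-like cells of XY WT and at 10.7 and 6.30 CPM in the endothelial-like cells of the same libraries. In XY WT, the level in Sertoli-like cells was thus close to that in endothelial-like cells, a class of another lineage. In the other groups endothelial-like cells had 1 to 11 Rhox5 UMIs per library. They were at 2.38 and 0.792 CPM for XX WT and 0.655 and 6.84 CPM for XX -KTS KO. In +KTS KO they were at 2.91 and 1.13 CPM for XX and 1.65 and 1.38 CPM for XY. All of these lay below the somatic level of the same library, whereas XY -KTS KO, at 4.72 and 2.70 CPM, lay above it. Germ cell RNA moved with the fall of Rhox5: Dppa5a in somatic cells was at 0.222 and 0.422% of its germ-cell level in XY WT, and XY -KTS KO had 0.0899 and 0.127%. Of the germ cell and germline list, 22 genes were tested in somatic cells, and in XY -KTS KO against XY WT 3 were lower and 1 was higher, or 18.2% called against 23.7% of all genes, with a median log2 fold change of -1.71 against 0.01 over all genes. The list includes genes with a higher somatic level. Over the 12 libraries Utf1 had a median of 33.9 CPM in somatic and 1003 CPM in germ cells, against 5.31 and 4882 CPM for Dppa5a. The part of the listed genes in the Rhox5 result was not tested.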

How the data were processed

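UMI counts were analysed for 12 libraries of E12.0 mouse gonads. The authors made the deposited counts with Cell Ranger 6.0 on mm10, per the submitters' processing notes, as raw UMI counts per gene and barcode without normalization. Of 103730 barcodes, 83513 passed a minimum of 1000 genes and a maximum of 10% of UMIs from mitochondrial genes. The barcodes with the highest Scrublet scores, 0.8% per 1000 barcodes of a library, were removed as doublets, 7447 in all, which left 76066 cells. Of 102389 distinct barcodes, 1329 occurred in several libraries, 2.42 to 2.74% of those of a library.

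Cells were clustered with Seurat 5.3.0 after sctransform 0.4.2, on 3000 variable genes without any Rhox gene, 50 components, 20 neighbours and a resolution of 0.8. A cluster was named from listed markers of which at least 3 were raised. UMIs were summed over the germ cells or the gonadal somatic cells of each library, and levels are CPM of these sums. Comparisons used edgeR 4.0.16 in R 4.3.3, with TMM, a filter on low counts, 1 quasi-likelihood fit over the 6 groups and Benjamini-Hochberg adjustment over all genes tested, at 0.05. DESeq2 1.42.0 was an alternative, as were DESeq2 size factors, no filter, leaving out libraries, the groups compared alone, a replicate block, log-normalized clustering, a resolution of 1.2, doublets kept, cells named one by one by their markers, and cells of at least 5000 UMIs. The last, and leaving out XX -KTS KO replicate 2 or XY +KTS KO replicate 1, were chosen after seeing the data. Other versions were scanpy 1.11.5, Python 3.11.15, numpy 2.4.6, pandas 2.3.3 and scipy 1.17.1.

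The series' design text calls the libraries of a genotype independent replicates. The members and the gene lists were chosen with earlier results of these data known. The genes named were the members, other Rhox features of at least 20 CPM in a group, genes of fixed lists with their largest changes and the 3 to 5 genes most like a member, with Pearson's r of log2(CPM + 1) over the 12 libraries. Rhox13 was named after its values were seen. Gene positions are those of GENCODE M21, which held 32158 of the 32285 feature identifiers. Of the members, only Rhox5 matched an entry of the promoter table. The test was checked on simulated counts with known changes.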

Additional observations from a re-analysis of the deposited data

How the results depend on the processing

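Of 686 fold changes of the members recomputed under the alternatives, 598 stayed the same, 40 gained a call, 7 lost one, 38 changed sign and 3 moved, while 20 of 20 levels held. Staying the same meant keeping direction and side of the threshold. For somatic Rhox8 in -KTS KO, which had no test, it meant staying within the spread of the libraries, and the 3 that moved were of XX -KTS KO. Germ-cell Rhox8 in XY WT against XX WT and somatic Rhox5 in XY -KTS KO were the calls lost, under 5 and 2 alternatives. Values near 0 changed sign: Rhox6 in XX -KTS KO germ cells was -0.0016 with no filter, -0.00068 with log-normalized clustering and -0.030 with doublets kept. The sex difference of the +KTS KO effect in germ cells was 0.073 for Rhox6 with doublets kept, and for Rhox9 -0.00029 with DESeq2, -0.00043 with its size factors, -0.0028 with no filter, -0.0061 with the groups compared alone and -0.022 with cells named one by one. In somatic cells with doublets kept, XX -KTS KO against XX WT gave -0.79 for Rhox5, -0.92 for Rhox6 and -1.23 for Rhox9, and XX +KTS KO gave -1.17 for Rhox5. Keeping doublets also brought calls in somatic cells. In XX +KTS KO they were -3.49 for Rhox6 and -3.78 for Rhox9, where 1012 of 17977 genes were called. In XY +KTS KO they were -3.08, -4.91 and -5.18 for Rhox5, Rhox6 and Rhox9, where 2777 genes were called. In XY WT against XX WT Rhox5 was called at 1.84, along with 2706 genes in all. Rhox9 in XY WT against XX WT somatic cells was -0.12 with cells named one by one. For these the cause was not tested.

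Of Rhox5, Rhox6 and Rhox9 in XY WT against XX WT germ cells, 2 were called with no filter and 1 with the groups compared alone. Of all genes, these fits called 657 of 22886 and 228 of 13609, in that order, against 0.959% in the main fit. Rhox6 was then at -0.76 with no filter and -0.76 with the groups compared alone (adjusted p = 0.0478), and Rhox9 at -0.71 with no filter. Leaving out replicates gave -0.77 to -0.75 for Rhox6 and -0.79 to -0.62 for Rhox9. In germ cells it also gave -0.022 to 0.063 for Rhox6 in XX -KTS KO, whereas the XY +KTS KO values were -0.98 to 0.29 for Rhox5, -0.99 to 0.30 for Rhox6 and -0.90 to 0.22 for Rhox9. For the sex difference of the -KTS KO effect it gave -0.0031 to 0.22 for Rhox5, and for that of the +KTS KO effect -0.92 to 0.50 for Rhox5, -0.61 to 0.44 for Rhox6 and -0.46 to 0.41 for Rhox9. In somatic XX -KTS KO it gave -0.66 to 1.45 for Rhox5, -1.34 to 2.54 for Rhox6, -1.75 to 2.08 for Rhox9 and -9.48 to -8.67 for Rhox8. Somatic Rhox8 ran from -0.77 to 0.77 in XX +KTS KO, from -1.01 to 0.74 in XY +KTS KO and from -0.82 to 0.0074 for the sex difference. In XY WT against XX WT somatic cells it gave -0.70 to 1.16 for Rhox6 and -0.71 to 0.98 for Rhox9.

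Replicate numbers are shared between groups. Over 15 pairs of groups, the deviations of same-numbered libraries correlated from -0.32 to 0.39 in germ cells. In somatic cells they correlated from -0.29 to 0.33. Correlations of both signs cannot decide whether some same-numbered libraries were handled together. With the replicate block, the call of Rhox8 in XX -KTS KO germ cells was gained (1.56, adjusted p = 0.0445) and no other call of a member changed. Counts of called genes moved widely: in germ cells 13 in XX -KTS KO ranged from 0 to 419 and 131 in XY WT against XX WT from 13 to 657 over the alternatives, and in somatic cells 2918 in XX -KTS KO from 338 to 3887, with 4196 in XY -KTS KO moving from 1313 to 5047.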

Other observations

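The germline members were also counted in erythroid-like cells, which are expected to lack them, in amounts that varied widely between libraries. Rhox5 there was at 3.71 and 51.8 CPM for XX WT, 85.2 and 70.0 CPM for XY WT, 0.478 and 134 CPM for XX -KTS KO and 2.60 and 1.02 CPM for XY -KTS KO. It was at 0.683 and 0.610 CPM for XX +KTS KO and at 74.1 and 0.398 CPM for XY +KTS KO. Rhox9 moved along with it, at 87.1 CPM for XX -KTS KO replicate 2 against 0.956 CPM in replicate 1. The 2 libraries of XX WT, XX -KTS KO and XY +KTS KO lay far apart in Rhox5, so genotype and sex did not order these values. Thinned to 5000 UMIs, at most 18.3% of the erythroid-like cells of a library held a Rhox5 UMI.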
